A study of Mus musculus with 2 samples.

Results

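Type I interferon-stimulated genes are genes whose transcription is switched on when a cell senses type I interferon, and 36 of them were followed here through the immune cells of the inflamed mouse colon. The members were the rows of both count tables whose symbol is one of the 36, out of 32285 genes listed, and all 36 had at least 1 unique molecular identifier (UMI, a tag that marks 1 captured RNA molecule) in a retained cell. Immune cells taken from the inflamed colons of C57BL/6 mice in an experimental colitis had been run as single-cell 3′ RNA libraries, 1 labelled WT and 1 labelled CKO. The series title ties the CKO label to loss of RPA1, a subunit of the complex that binds single-stranded DNA, and to T cell necroptosis. The labels and notes used here state neither what drives the deletion, nor which exons it removes, nor the age of the mice, their number per library or the agent behind the colitis. The question the pair addresses is how colon-infiltrating immune cells differ between the labels.

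With 1 library per label there is no replicate, no test and no p-value, and the label cannot be told apart from differences between animals, preparations or libraries. Every ratio below compares 2 libraries, and every interval is a 95% interval that covers counting error only. Of 2972 and 11311 barcodes, 2924 cells of the library labelled WT and 10942 of the library labelled CKO were retained, with 18627050 and 57740083 UMIs over all barcodes and medians of 4083 and 3338 UMIs per barcode. The libraries shared 6 barcode sequences. Scrublet marked 1 cell as a doublet in the library labelled WT, 0.0342% of its cells, so doublets were in effect not removed there, and 213 cells (1.91%) in the library labelled CKO. Clusters with markers of several classes (249 and 661 cells) and clusters that could not be named (507 and 194, of which 454 and 42 lay in 1 cluster of few UMIs) entered no class. Cells were grouped into marker-defined classes by clustering that left the 36 members and the other interferon genes out, so that no class rests on them. Rpa1 itself was at 37.0 and 55.2 CPM (UMIs per 1000000 UMIs of the class) in T-like cells, which checks nothing about the deletion, because counted 3′ ends may lie outside the deleted exons.

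Type I interferons bind a shared receptor, IFNAR, whose kinases JAK1 and TYK2 phosphorylate STAT proteins. STAT2 and IRF9 are parts of ISGF3, a transcription factor that binds the interferon-stimulated response element in the promoters of its targets. The targets include sensors of viral RNA, enzymes that block viral replication, and regulators that strengthen or end the response. In the gut, such genes are known to be expressed at a tonic level that depends in part on the microbiota.

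The response element is visible in the members' own promoters. RefSeq promoter windows of 300 bases, from 250 before the start to 50 after it, were at hand for 30 members (build GRCm38.p6), and Oas2, Usp18, Ifi27l2a, Dhx58, Rtp4 and Parp14 had no entry. The core of the element, GAAA, any 2 bases and GAAA on either strand, stood in the windows of 17 of these 30 members (56.7%), against 3.99% of 27025 genes. The core of the GAS element, known from interferon-gamma targets, TTCNNNGAA, stood in 4 of 30 (13.3%), against 9.55% of genes. The following stretches are shown because they carry the element upstream of members that the results turn on. Each is written 5′ to 3′ on the strand of its gene, and capitals mark the matches to the core, which reads TTTC, any 2 bases and TTTC where it lies on the opposite strand.
Isg15, chr4:156200860-156200911: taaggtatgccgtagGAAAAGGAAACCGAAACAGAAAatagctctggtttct
Rsad2, chr12:26456548-26456587: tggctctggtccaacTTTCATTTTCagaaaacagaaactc
Oas1a, chr5:120907526-120907560: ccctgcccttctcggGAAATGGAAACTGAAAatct
Ifit1, chr19:34640770-34640828: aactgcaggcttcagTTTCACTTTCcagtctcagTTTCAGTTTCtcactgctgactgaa
Ifit3, chr19:34583358-34583431: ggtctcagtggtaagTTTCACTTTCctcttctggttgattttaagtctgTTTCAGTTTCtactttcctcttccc
Ifit3b, chr19:34607754-34607827: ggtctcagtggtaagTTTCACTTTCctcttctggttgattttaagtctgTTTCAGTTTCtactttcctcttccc
Stat2, chr10:128270261-128270300: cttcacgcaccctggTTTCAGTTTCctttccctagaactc
Bst2, chr8:71537572-71537617: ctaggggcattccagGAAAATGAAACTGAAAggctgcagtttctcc
The Isg15 stretch holds 3 overlapping cores in a row and the Ifit1 stretch holds 2. The 74 bases shown for Ifit3 and Ifit3b are the same, letter for letter. These neighbours are also alike in the transcript: 16.7% of the 60-base words in the last 400 bases of Ifit3 occur in Ifit3b, and 31.4% of those of Phf11b occur in Phf11d, so the split of reads within these pairs is uncertain. The 5 IFIT genes lie together on chromosome 19, between 34550694 and 34650009 (GRCm38).

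Per UMI of the class, and among the 9 classes read, the members were highest in phagocytes of both libraries. Summed over the 36, they made up 16748 CPM of neutrophil-like cells labelled WT (interval 16340 to 17165) and 17663 CPM of those labelled CKO (17550 to 17777). Monocyte and macrophage-like cells followed, at 13115 and 12364 CPM. T-like cells stood at 7404 and 6199 CPM, and dendritic-like (DC-like) cells at 5365 and 7198. B-like cells stood at 4292 and 4258 CPM, and plasma-like cells at 3964 and 3341. Natural killer-like (NK-like) cells were at 3021 and 2496 CPM, type 3 innate lymphoid-like (ILC3-like) cells at 2836 and 3407, and type 2 (ILC2-like) cells at 1716 and 1630. The counting intervals of neighbours in this order overlapped only for NK-like and ILC3-like cells of the library labelled WT and for ILC3-like and plasma-like cells of the library labelled CKO. The order depends on this scale. Structural genes (immunoglobulin, T cell receptor, ribosomal and mitochondrial) made up 53.1% and 54.6% of plasma-like UMIs, against 4.15% and 3.05% of neutrophil-like. Without them in the total, plasma-like cells stood at 8457 and 7353 CPM, above B-like cells at 6799 and 6637. Unscaled, the mean cell held 130 and 96.7 member UMIs in the monocyte and macrophage-like class, 79.8 and 57.6 in plasma-like cells and 35.4 and 51.6 in neutrophil-like cells. The classes rested on 180 and 1804 neutrophil-like, 35 and 903 monocyte and macrophage-like, 26 and 311 DC-like, 340 and 583 T-like, 1090 and 4988 B-like, 291 and 558 plasma-like, 50 and 419 NK-like, 35 and 108 ILC3-like, and 101 and 269 ILC2-like cells. A few members carried much of each sum: the top 3 made up from 35.9% of it in ILC2-like cells labelled WT to 85.4% in plasma-like cells labelled CKO, and Ifi27l2a, a small mitochondrial protein, was among the top 3 in every class read.

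**Figure D1:**
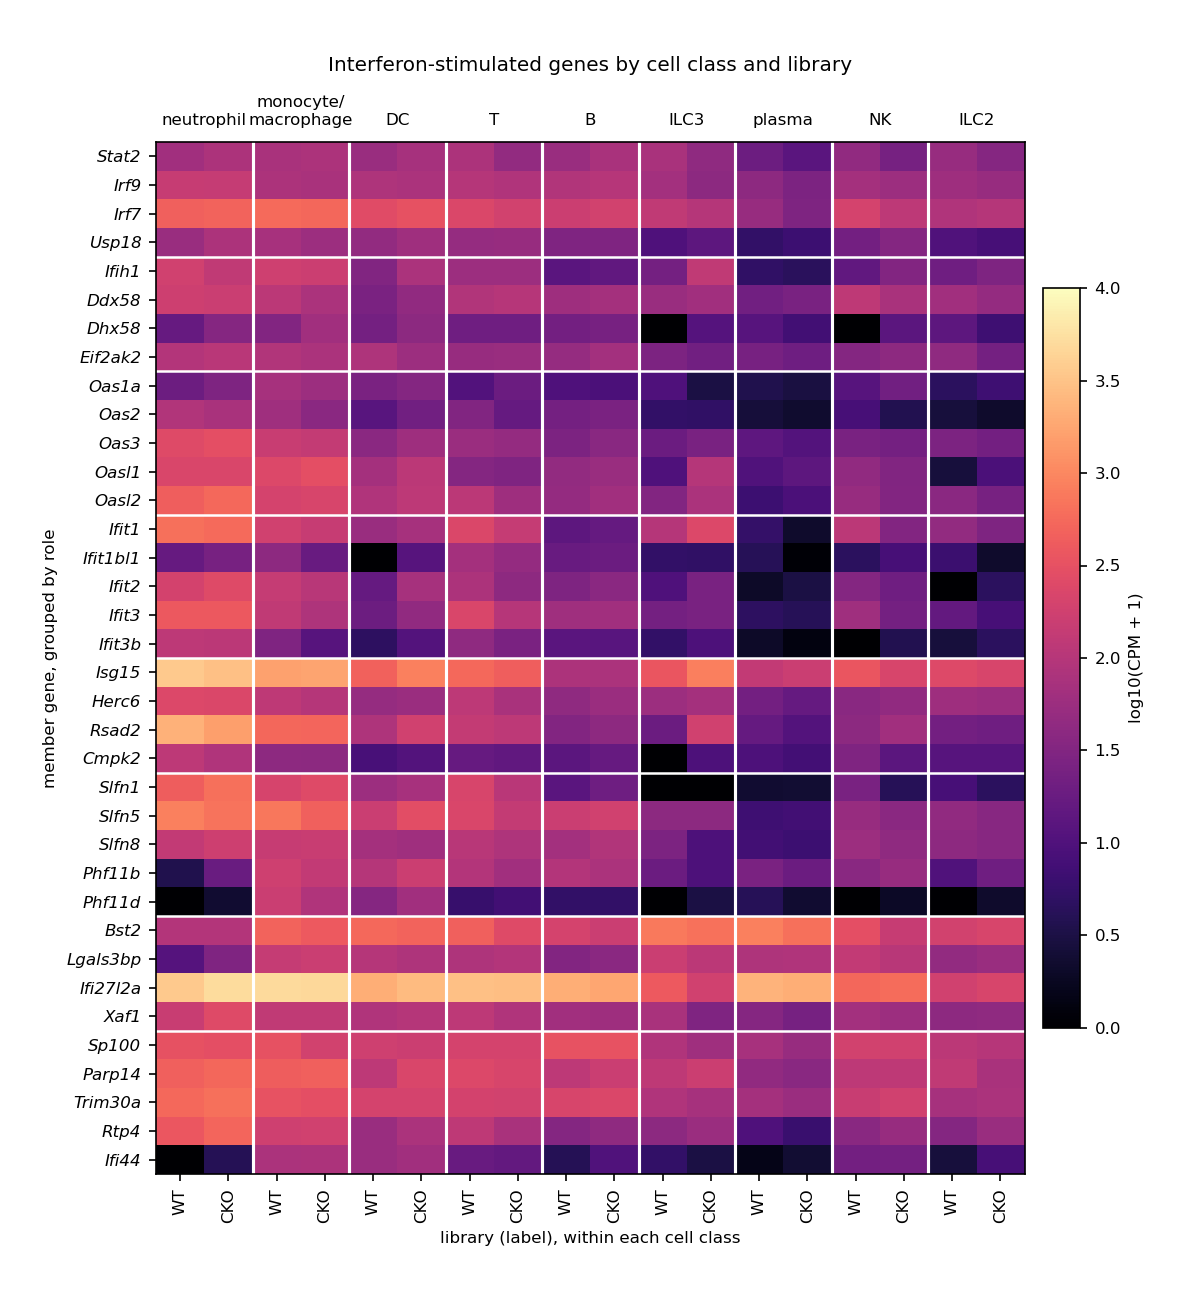
Level of each of the 36 members, log10(CPM + 1), in 9 cell classes (columns, ordered by the summed level in the library labelled CKO) of both libraries; members are grouped by role, white lines part the roles and classes, and each square is 1 library. Isg15 and Rsad2 are brightest in neutrophil-like cells, at 3602 and 2241 CPM under the WT label, while Bst2 and Lgals3bp are darkest there and plasma-like cells are dark for most members.

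Gene by gene, 23 of the 36 members had their highest level in neutrophil-like cells of the library labelled CKO, and for 22 of them the counting interval stood apart from that of the next class. A further 9 were highest in monocyte and macrophage-like cells, 6 with intervals apart. In the library labelled WT the counts were 21 and 10, with 12 and 2 apart. Plasma-like cells were lowest for 26 members under the CKO label and for 22 under the WT label. This and the levels below are on the scale that counts structural genes in the total.

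The ubiquitin-like Isg15 showed this most plainly. It stood at 3602 CPM in neutrophil-like cells labelled WT and 2995 in those labelled CKO, at 1599 and 1763 in monocyte and macrophage-like cells, and at its lowest, 82.0 and 76.9, in B-like cells. Rsad2 encodes viperin, an enzyme that makes a chain-terminating nucleotide. It stood at 2241 and 1584 CPM in neutrophil-like cells, at 535 and 521 in monocyte and macrophage-like cells, and at 15.2 and 10.1 in plasma-like cells. Rsad2 was 148 times higher in neutrophil-like than in plasma-like cells under the WT label, and 157 times higher under the CKO label.

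Other antiviral effectors followed the neutrophil-like pattern. Oasl2, of the oligoadenylate synthetase family, was at 452 and 543 CPM there against 201 and 214 in monocyte and macrophage-like cells. Ifit1, which binds RNA with an unmethylated cap, was at 636 and 578 CPM in neutrophil-like cells and at 4.44 and 1.14 in plasma-like cells. Oas3 was at 263 and 296 CPM, the ligase Herc6 at 239 and 234, and Trim30a, a regulator of inflammatory signalling, at 557 and 627, each in neutrophil-like cells. Ifit3 was at 386 and 382 CPM there, with T-like cells next at 221 and 101. Slfn1 stood at 428 and 635 CPM in neutrophil-like cells and had 0 UMIs in ILC3-like cells of both libraries.

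Irf7, the factor that amplifies interferon-alpha genes, was highest in monocyte and macrophage-like cells, at 564 and 530 CPM, with neutrophil-like cells close behind at 460 and 492. The helicase Dhx58 was highest there too, at 31.6 and 62.6 CPM. Ifi44 was at 77.6 and 81.8 CPM in monocyte and macrophage-like cells, against 0 UMIs and 3.03 CPM in neutrophil-like cells. Phf11d was at 155 and 87.3 CPM in the former, and its UMIs in neutrophil-like cells numbered 0 and 7.

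A few members broke the pattern. Bst2 encodes tetherin, which holds budding virus at the cell surface. It was lowest in neutrophil-like cells, at 94.6 and 93.7 CPM, and highest in plasma-like and ILC3-like cells, at 869 and 775 CPM under the WT label and 630 and 661 under the CKO label. Lgals3bp, a secreted glycoprotein, was also lowest in neutrophil-like cells, at 10.5 and 29.0 CPM. Sp100, a component of nuclear bodies, was highest in B-like cells, at 329 and 334 CPM. Ifit1bl1 was highest in T-like cells, at 66.7 and 47.3 CPM. Under the WT label neither stood apart from monocyte and macrophage-like cells, at 322 CPM for Sp100 and 40.3 for Ifit1bl1, since the counting intervals overlapped.

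Small classes were not compared between libraries and are given as levels. Fibroblast-like cells, 3 and 44 in number, held members at 10856 and 12770 CPM. The second value is above the 12364 CPM of monocyte and macrophage-like cells labelled CKO. The 15 epithelial-like cells labelled CKO stood at 4034 CPM, the 55 mast-like cells at 2645, the 17 basophil-like cells at 3887 and the 13 plasmacytoid DC-like cells at 9650.

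The spread over cells differed between classes. After each cell was thinned to 1000 UMIs, the median neutrophil-like cell held 11 member UMIs under the WT label and 16 under the CKO label, and 86.1% (exact binomial interval 79.7 to 91.1) and 95.2% (94.1 to 96.2) of cells held at least 5. Without thinning those shares were 91.1% and 98.6%. The median monocyte and macrophage-like cell held 13 and 11, the DC-like cell 6 and 6, the T-like cell 5 and 4, the B-like cell 3 and 3, and the ILC2-like cell 1 and 1. At this depth 1.27% and 0.289% of neutrophil-like cells had no member UMI, against 36% and 33.5% of ILC2-like cells. The top 10% of cells held from 21.8% of member UMIs in monocyte and macrophage-like cells labelled CKO to 52.4% in ILC3-like cells labelled CKO. Thinning left out 22 and 75 neutrophil-like cells, 9 and 64 B-like cells, 8 and 15 T-like cells and at most 50 cells of any other class in a library.

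**Figure D2:**
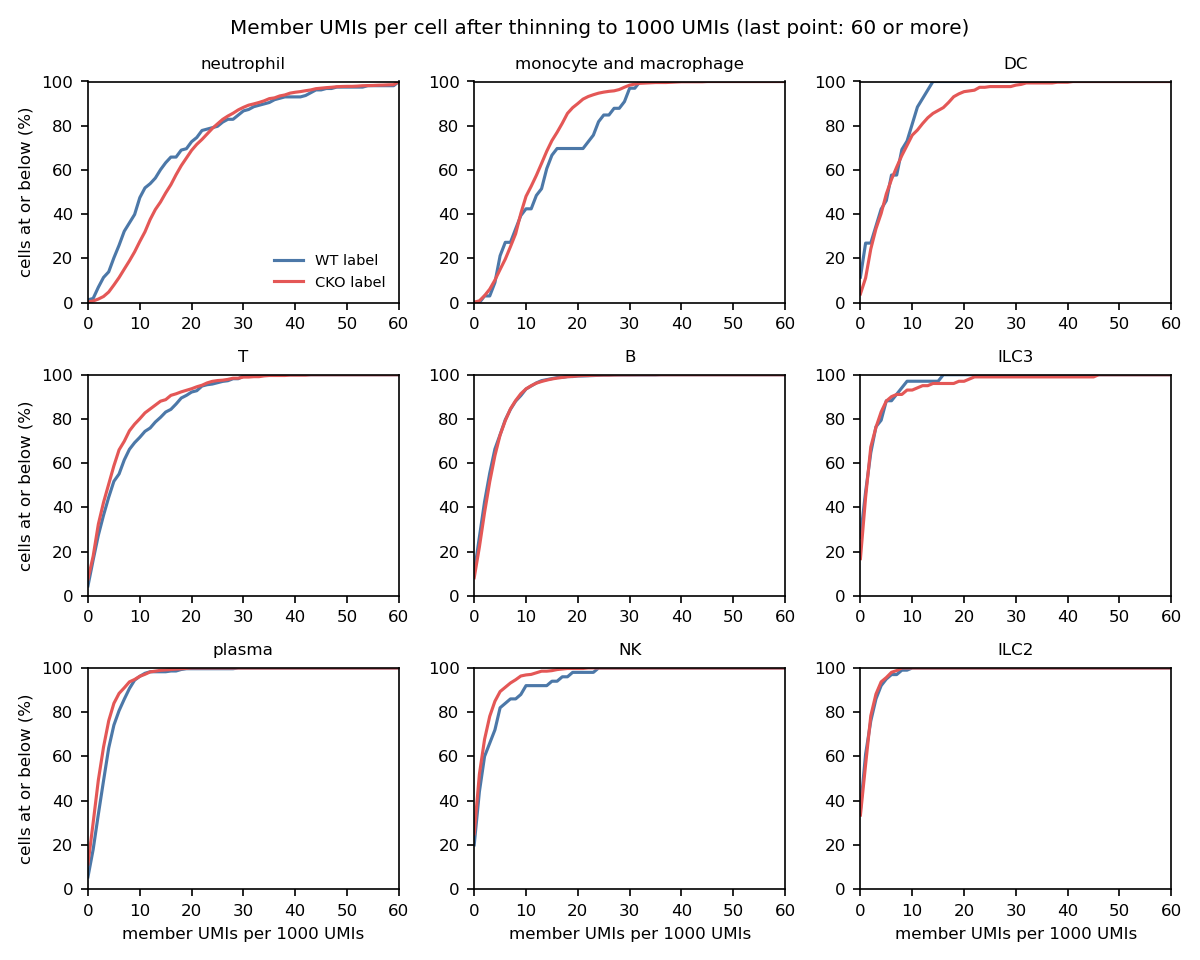
Share of cells (y axis, percent) at or below each number of member UMIs (x axis) after every cell was thinned to 1000 UMIs, for 9 classes; blue is the library labelled WT and red the library labelled CKO. The curves of neutrophil-like cells part at low values, with medians of 11 and 16, while those of B-like cells lie on each other with medians of 3 and 3.

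Members tended to be found in the same cells in B-like, T-like and NK-like cells, and less plainly in plasma-like cells. In B-like cells labelled CKO, at equal depth, 34 of the 35 members read were more frequent in cells with at least 3 UMIs of the other members than in cells with none, 32 of them by at least 2-fold, with a median of 3.49-fold. The exception was Irf9, at 11.0 UMIs per 100 cells against 11.8. Isg15 was at 10.2 UMIs per 100 cells against 0.983, and Ifit3 at 9.96 against 0.248, the latter from 1 UMI. All 28 members read in T-like cells labelled CKO and all 11 read in NK-like cells labelled CKO had the same direction. In plasma-like cells it held for 4 of 6 members read under the CKO label, with Lgals3bp at 0.99-fold and Sp100 at 0.95-fold, and for 1 of 2 under the WT label, with Bst2 at 0.69-fold. When the interferon genes were left in the clustering, some clusters were led by members. Their high member level follows from how they were formed and picked. Whether they hold the cells compared above was not tested. A B-like cluster led by Slfn5 and Ifit3 held 10.4% and 14.4% of B-like cells at 10029 and 9194 member CPM. A neutrophil-like cluster led by Rsad2, Ifit1 and Ifit2 held 15 and 280 cells, 8.24% and 15.6% of the class, at 40563 and 30731 CPM. A T-like cluster led by Ifit1bl1, Ifit1 and Ifit3 held 25 and 28 cells, 7.62% and 5.16%, at 15606 and 16142 CPM.

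Between the libraries, the summed level differed by less than 1.5-fold in every class read. On the log2 scale, CKO label over WT label, it was -0.01 in B-like cells (interval -0.03 to 0.01), 0.08 in neutrophil-like cells (0.04 to 0.11), -0.09 in monocyte and macrophage-like cells (-0.13 to -0.04) and -0.07 in ILC2-like cells (-0.19 to 0.05). It was 0.42 in DC-like cells (0.35 to 0.50) and 0.26 in ILC3-like cells (0.13 to 0.40). It was -0.25 in plasma-like cells (-0.27 to -0.22), -0.26 in T-like cells (-0.29 to -0.22) and -0.28 in NK-like cells (-0.38 to -0.17). For single members, a ratio was read where the libraries together held at least 20 UMIs, and a member was counted as higher or lower at 1.5-fold or more. The share of all genes past the same fold is the background for each count.

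**Figure D3:**
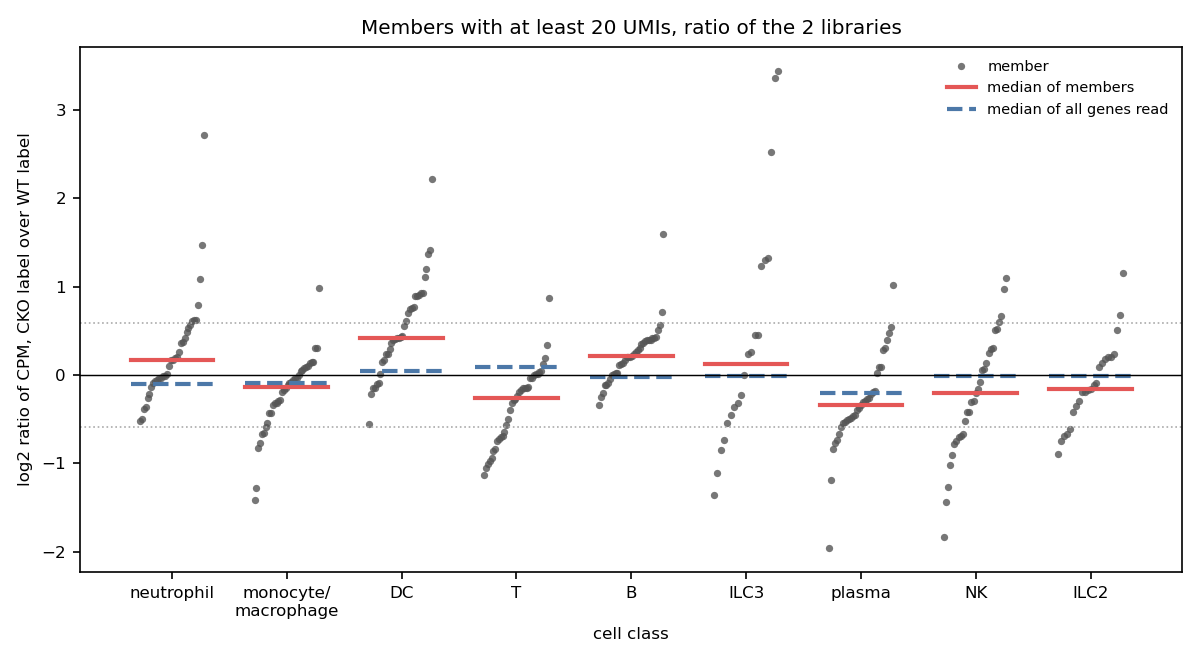
Log2 ratio of CPM, CKO label over WT label (y axis), of each member with at least 20 UMIs (grey points, sorted within a class) in 9 classes; red lines are the medians of the members, dashed blue lines those of all genes read, and dotted lines mark 1.5-fold. Points of DC-like cells lie mostly above 0 with a median of 0.42, and those of T-like cells mostly below it with a median of -0.26.

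Counted at 1.5-fold, DC-like cells had the most members on the CKO side, while B-like cells had the most with intervals above 0 (18 of 36). Of 36 read, 15 were at least 1.5 times higher and 0 lower in the library labelled CKO, against 22.9% of all genes higher and 14.6% lower. The median of the members was 0.42 and that of all genes 0.04. Only 26 DC-like cells were labelled WT, so single ratios are wide, and the intervals of 9 members lay above 0, against 5.75% of all genes, and of 0 below it, against 5.61%.
Ifit2 stood at 15.02 CPM under the WT label, from 4 UMIs, and at 69.8 under the CKO label (log2 2.22, interval 0.84 to 4.11). The double-stranded RNA sensor Ifih1 stood at 30.03 and 77.5 CPM (1.37, 0.37 to 2.60). Isg15 was at 477 and 887 CPM (0.90, 0.64 to 1.16) and Slfn5, a Schlafen family member, at 154 and 292 (0.92, 0.47 to 1.41). The IFIT genes as a group and the Isg15 group, which is Isg15, its ligase Herc6, Rsad2 and Cmpk2, had log2 ratios of 1.17 and 0.87.
Where 1 cell weighed heavily, the ratio was also taken without the top cell of each library. In a class with few cells labelled WT, this takes out a larger share of the WT side and so tends to raise the ratio. For Slfn8 the top cells held 44.4% and 3.85% of its UMIs. The same limit holds for such ratios in the classes below. Slfn5 went from 0.92 to 1.41, Ifit3 from 1.199 to 1.86, Rsad2, at 82.6 and 177 CPM, from 1.10 to 1.75, and Slfn8 from -0.15 to 0.64. Ifit3b rested on 1 and 30 UMIs (1.42, -1.17 to 6.77). The other members past 1.5-fold were Parp14, Oasl1, Oas2, Oas3, Phf11b, Phf11d, Ddx58 and Dhx58. The smallest ratios were those of Eif2ak2, the kinase PKR, at 82.6 and 56.1 CPM (-0.56, -1.20 to 0.16), of Lgals3bp at -0.22 and of Bst2 at -0.15 (0.22 without the top cells).
One DC-like cluster of 26 and 260 cells held all DC-like cells labelled WT, and the ratio within it was 0.43 (0.35 to 0.51). It was led by Cst3, Plet1 and Tnip3 and had 0 DC markers among its top 10 genes. The other, led by Fscn1 and Ccl22, held 0 and 51 cells.

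S100a8, an abundant neutrophil transcript, was found in other classes too, and at a higher level under the CKO label. It stood at 237 and 1036 CPM in DC-like cells, at 13.2 and 81.6 in B-like cells and at 8.81 and 141 in ILC3-like cells. At the ratio of S100a8 to the members inside neutrophil-like cells, neutrophil RNA would carry 191 and 337 of the 5365 and 7198 member CPM of DC-like cells (3.56% and 4.68%). For Rsad2 in DC-like cells it would carry 25.6 of 82.6 CPM and 30.2 of 177 CPM. It would carry at most 2.20% of the summed level in any lymphoid class, but 12.1% and 7.90% in monocyte and macrophage-like cells, in which S100a8 is also transcribed. The 11 neutrophil markers together summed to 1607 and 4040 CPM in DC-like cells, and the 15 monocyte and macrophage markers to 2117 and 2886. The 13 DC markers themselves summed to 1385 and 1994 CPM there, less than either list, so the name of this class is not firm. Whether neutrophil RNA had a part in the differences between libraries was not tested beyond these values.

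T-like cells had the most members on the WT side. Of 36 read, 12 were at least 1.5 times lower and 1 higher in the library labelled CKO, against 7.42% of all genes lower and 16.4% higher. The median was -0.26, against 0.09 for all genes, and the intervals of 18 members lay below 0 and of 1 above it, against 7.58% and 16.3% of all genes. Markers of other classes moved with this in T-like cells: those of NK cells, 8 of 10 detected and 10 of 10, summed to 896 and 2696 CPM, those of ILC3, 6 of 7 and 7 of 7, to 113 and 380, and those of plasma cells, 7 of 7 in both, to 1247 and 394. The T cell markers themselves, 10 of 10 in both, summed to 4229 and 3937 CPM, and the part of such cells in the difference was not tested. The lower members held 4 of 5 IFIT genes, which together had a ratio of -0.87 (-0.99 to -0.74), and 2 of 5 of the Schlafen and PHF11 genes (-0.71, -0.83 to -0.59).
Ifit3 stood at 221 CPM under the WT label and 101 under the CKO label (-1.13, -1.37 to -0.90). Ifit2 stood at 82.4 and 39.7 CPM (-1.05) and Slfn1 at 217 and 108 (-1.01). Oasl2 stood at 114 and 58.0 CPM (-0.97).
Bst2, at 459 and 258 CPM (-0.83), and Stat2, at 81.8 and 44.9 (-0.87), were lower as well. The highest ratios were those of the synthetase Oas1a, at 9.52 and 17.5 CPM (0.88, 0.04 to 1.78), of Phf11d at 0.33 from 9 and 16 UMIs (0.38 without the top cells), of Lgals3bp at 0.19 and of the sensor Ddx58 at 0.12.

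This difference moved with the mix of T-like cells. The cluster led by Lef1, Ly6c1 and Tcf7, genes of naive T cells among them, had the highest member level of the T-like clusters, 10701 and 12212 CPM. It held 151 of 340 T-like cells labelled WT and 97 of 583 labelled CKO. Inside it the summed ratio was 0.19 (0.13 to 0.25). It was 0.41 (0.34 to 0.49) in the cluster led by Cd8b1, at 6807 and 9064 CPM, and -0.09 in that led by Tnfrsf4 and Icos, at 7455 and 7024 CPM. The cluster led by Ikzf2 and Cd7 was the lowest of these 4, at 3325 and 3232 CPM, and held 84 and 180 cells.
With the clusters weighted alike in both libraries, the summed ratio of T-like cells was 0.15 in place of -0.26, the median of the members 0.26, and no member was 1.5 times lower. The named members came to -0.18 for Ifit3, -0.07 for Ifit2, -0.23 for Slfn1 and -0.06 for Oasl2. The IFIT genes went different ways by cluster. In the Ikzf2 cluster Ifit2 was at 51.8 and 4.82 CPM (-3.43, -5.41 to -1.90) and Ifit1 at 127 and 54.2 (-1.23, -1.82 to -0.66), and in the Tnfrsf4 cluster Ifit1 was at 188 and 104 (-0.85, -1.42 to -0.25). In the Cd8b1 cluster Ifit1 was at 120 and 256 CPM (1.10, 0.55 to 1.67). In the Lef1 cluster Ifit3 stood at 410 and 383 CPM, and Isg15 at 772 and 1022. Slfn1 was lower under the CKO label there as well (-0.41, -0.77 to -0.05).

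**Figure D4:**
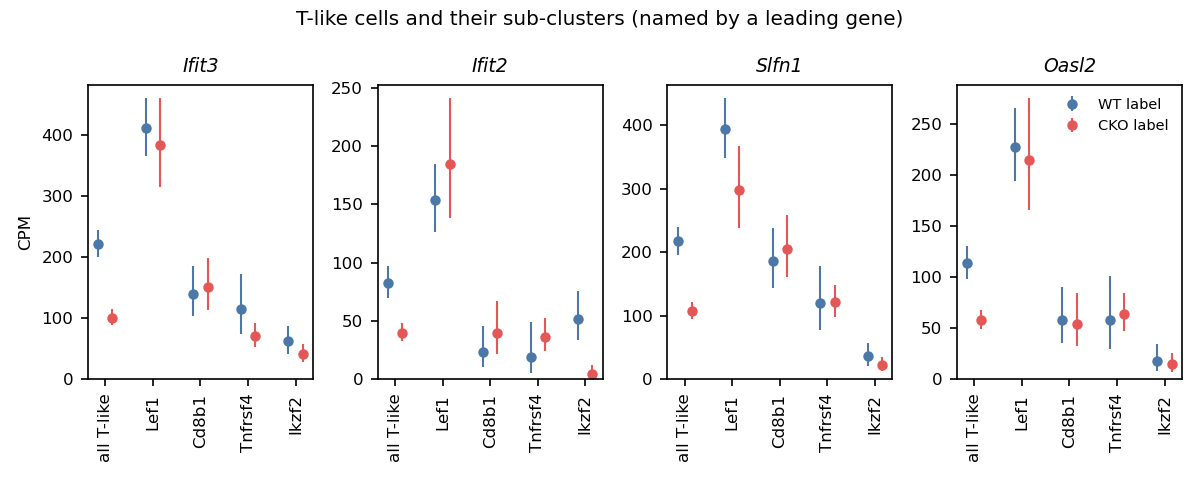
CPM of Ifit3, Ifit2, Slfn1 and Oasl2 (y axes, 1 panel each) in all T-like cells and in their 4 larger clusters, named by a leading gene; points are libraries (blue WT label, red CKO label) and bars are exact Poisson intervals. In all T-like cells the red points lie below the blue ones (101 against 221 for Ifit3), while in the Lef1 cluster the intervals overlap.

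NK-like cells, with 50 cells labelled WT, had 10 of 31 members lower and 4 higher, against 13.5% and 16.7% of all genes, and a median of -0.20 against -0.02. The intervals of 6 members lay below 0 and of 0 above it, against 6.34% and 3.13% of all genes. Ifit1 stood at 111 and 31.1 CPM (-1.83, and -1.61 without the top cells) and Ifit3 at 60.8 and 22.4 (-1.44, and -1.16 without them). Cmpk2, a mitochondrial nucleotide kinase, rested on 8 and 26 UMIs (-1.26, and -0.57 without them). Bst2 was at 297 and 147 CPM (-1.02, -1.37 to -0.65).
The highest ratios were 1.10 for Ifih1, 0.97 for Oas1a, 0.66 for Rsad2 and 0.60 for the deconjugating protease Usp18, all with intervals across 0. Without the top cells the last 3 were 1.46, 1.01 and 1.12.
The clusters differed here too. In that led by Ifng, Xcl1 and Gzmc, with 21 and 124 cells, members were at 4898 and 2550 CPM, a ratio of -0.94 (-1.09 to -0.79). In that led by Gzma and Prf1, with 27 and 271 cells, they were at 2024 and 2364 CPM, a ratio of 0.22 (0.06 to 0.39).

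**Figure D5:**
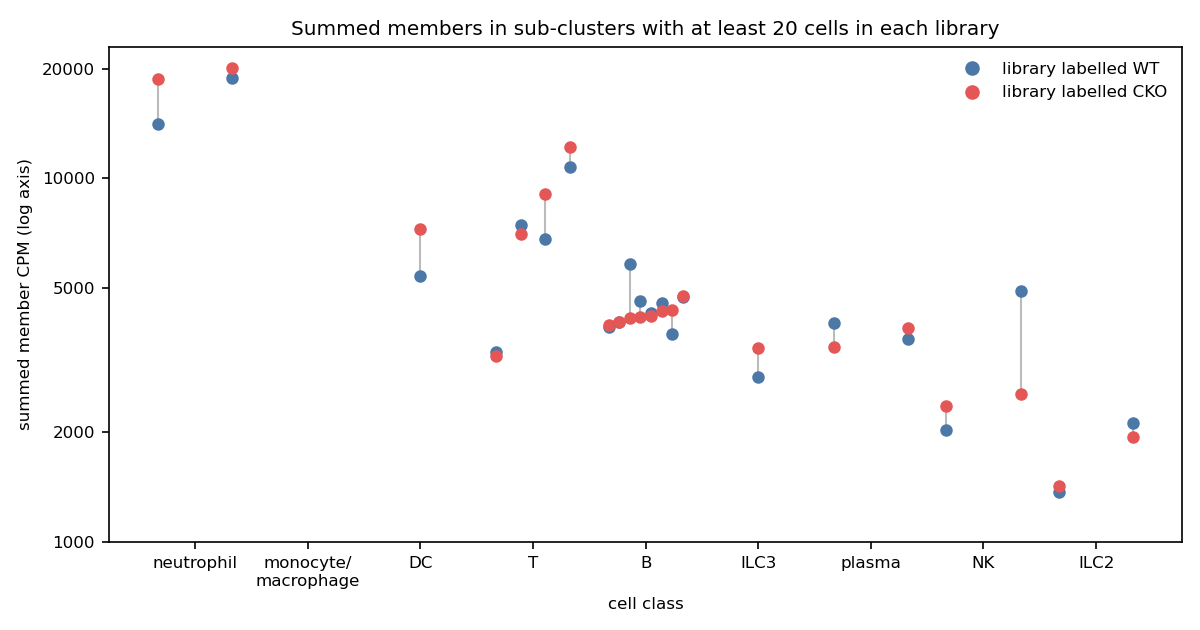
Summed member CPM (y axis, log scale) in each cluster that held at least 20 cells in both libraries, by class; blue and red points are the libraries labelled WT and CKO and grey lines join the values of 1 cluster, and no monocyte and macrophage-like cluster had 20 cells labelled WT. The T-like clusters span from 3325 to 10701 CPM under the WT label, and the Gzmc cluster of NK-like cells has the widest gap, 4898 against 2550.

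B-like cells, the largest class, gave the narrowest intervals. Of 36 members, 2 were at least 1.5 times higher and 0 lower, against 5.69% and 6.86% of all genes. The intervals of 18 members lay above 0 and of 3 below it, against 9.69% and 13.6% of all genes, and the median was 0.21 against -0.03. Each role group except that of surface, secreted and mitochondrial proteins had an interval above 0, from 0.15 for the IFIT genes (0.02 to 0.28) to 0.30 for the synthetase family (0.19 to 0.42). The exception, Bst2, Lgals3bp, Ifi27l2a and Xaf1, was at -0.21 (-0.24 to -0.18) and made up 2351 of the 4292 CPM labelled WT.
Ifi44 stood at 3.01 and 9.07 CPM (1.59, 0.82 to 2.46) and Slfn1 at 11.6 and 19.0 (0.71, 0.30 to 1.14). Stat2, a subunit of ISGF3, was at 51.7 and 76.7 CPM (0.57, 0.37 to 0.77) and Slfn8 at 64.4 and 91.4 (0.51, 0.33 to 0.68). These values were higher under the CKO label with intervals clear of 0.
Ifi27l2a was at 2055 and 1784 CPM (-0.20, -0.24 to -0.17), Bst2 at 201 and 158 (-0.35, -0.45 to -0.24) and Phf11b at 92.7 and 77.7 (-0.25, -0.41 to -0.10). The pro-apoptotic Xaf1 was next lowest, at 63.2 and 58.4 CPM (-0.11). Of the 8 B-like clusters, that led by Hspa1b and Hspa1a, heat shock genes, had the widest gap, 5788 and 4124 CPM in 83 and 179 cells.

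Neutrophil-like cells had 7 of 34 members higher and 0 lower, against 20.8% and 26.6% of all genes, and a median of 0.17 against -0.11. The intervals of 8 members lay above 0 and of 4 below it, against 7.79% and 16.2% of all genes. Xaf1 stood at 152 and 263 CPM (0.79, 0.41 to 1.19). Ifi27l2a was at 3584 and 5159 CPM (0.53, 0.45 to 0.61), and the surface, secreted and mitochondrial group as a whole was at 0.53.
The remaining large ratios rested on few UMIs labelled WT. Phf11b had 1 and 91 UMIs (2.72, 0.20 to 8.03), Lgals3bp 4 and 153 (1.47, 0.08 to 3.36) and Dhx58 6 and 176 (1.08, -0.07 to 2.55).
The lowest ratios belonged to Ifih1, at 181 and 126 CPM (-0.52), Rsad2 (-0.50, -0.60 to -0.40), Cmpk2 (-0.39) and Slfn5, at 880 and 683 CPM (-0.37). The Isg15 group as a whole was at -0.34 (-0.40 to -0.28), with Isg15 and Rsad2 both lower in the class as a whole.
The spread over clusters differed between the libraries. The cluster led by Hcar2 and Ccl3 held 98 of 180 cells labelled WT and 403 of 1804 labelled CKO, at 18871 and 20072 member CPM, that led by Cstdc4 and G0s2 held 3 and 403, and that led by the granule genes Ngp and Lcn2 held 1 and 329, at 16546 CPM under the CKO label. The cluster led by G0s2 and Csf3r held 55 and 232. In the Hcar2 cluster Rsad2 was at 3151 and 2552 CPM (-0.30, -0.43 to -0.18), but in the Csf3r cluster it was at 1167 and 1497 (0.36, 0.09 to 0.64). Its ratio was above 0 in the 4 smaller clusters by WT cells as well, but from few UMIs labelled WT. It was 3.66 from 1 UMI in the Cstdc4 cluster (1.18 to 8.96) and 0.06 from 2 in the Ngp cluster (-1.79 to 3.11). It was 0.80 from 9 in that led by Cxcl3 (-0.13 to 1.94) and 0.62 from 25 in that led by Hdc (0.04 to 1.26). Isg15 was at 4199 and 4503 CPM in the Hcar2 cluster (0.10) and at 2505 and 3202 in the Csf3r cluster (0.35, 0.17 to 0.54). Of the 4 smaller clusters, that led by Cstdc4 had Isg15 higher (1.27, 0.34 to 2.40, from 9 UMIs labelled WT). The others had it lower, at -1.23 in the Ngp cluster (-2.16 to -0.10, from 9), -0.49 in that led by Cxcl3 (-0.87 to -0.09) and -0.33 in that led by Hdc (-0.63 to -0.03). Xaf1 was at 110 and 370 CPM in the Hcar2 cluster (1.75, 1.15 to 2.41). With a stricter cell filter the summed ratio of the class was -0.01 in place of 0.08. S100a8 itself was at 20737 CPM in neutrophil-like cells labelled WT and 54326 in those labelled CKO.

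Monocyte and macrophage-like cells had 7 of 36 members lower and 1 higher, against 25.9% and 15.4% of all genes, with a median of -0.13 against -0.10. The intervals of 9 members lay below 0 and of 2 above it, against 10.6% and 5.65% of all genes. Dhx58 was the member on the CKO side (0.98, from 11 and 442 UMIs), followed below 1.5-fold by Slfn1 at 0.31, Oasl1 at 0.30 and Lgals3bp at 0.15. Sp100 was at 322 and 189 CPM (-0.77, -1.05 to -0.48). Single cells among the 35 labelled WT weighed on these ratios: without the top cells, Sp100 went to -0.56, Ifit3b went from -1.42 to -0.52, Ifit1bl1 from -1.28 to -0.56 and Phf11d from -0.83 to -0.42. The cluster led by Chil3 and Vcan, which held 19 and 362 cells, was at 16536 and 12946 CPM, and that led by Inhba and Nos2, which held 3 and 314, at 9678 and 13693. The sign of the summed ratio was not stable in this class: it was 0.04 with a stricter cell filter, 0.07 at a finer clustering and 0.25 with cells called by their own markers, in place of -0.09.

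Plasma-like cells had 7 of 33 members lower and 1 higher, against 18.7% and 4.44% of all genes, and a median of -0.34 against -0.21. The intervals of 16 members lay below 0 and of 1 above it, against 29% and 5.41% of all genes. Irf7 stood at 49.8 and 27.8 CPM (-0.84, -1.09 to -0.60). Ifit1 rested on 26 and 11 UMIs (-1.96, -3.12 to -0.89), Phf11d on 18 and 13 (-1.19) and Rtp4, a chaperone of receptors, on 51 and 49 (-0.77). On the CKO side stood Ifit2 with 6 and 20 UMIs (1.02, and 0.55 without the top cells), Oasl2 at 0.54, Oasl1 at 0.47 and Usp18 at 0.39. Rsad2 went from -0.59 to 0.21 without the top cells. The summed ratio was -0.04 when centred on the median of all genes. By cluster it was -1.04 in that led by Ighv7-3 and Igkv1-110, with 19 and 100 cells at 5104 and 2482 CPM, -0.22 in that led by Iglc1 and Jchain, with 188 and 381 cells, and 0.09 in the cycling cluster led by Pclaf, with 84 and 77.

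ILC3-like cells, 35 and 108 in number, had 6 of 20 members higher and 4 lower, against 14.1% and 13.1% of all genes, with a median of 0.12 against -0.02. The intervals of 6 members lay above 0 and of 2 below it, against 4.94% and 7.62% of all genes. Oasl1 was at 8.81 and 95.7 CPM (3.44, 1.51 to 6.53), from 2 and 46 UMIs. Its ratio was 3.96 without the top cells, which held 50% of its UMIs labelled WT and 28.3% of those labelled CKO. Rsad2 was at 17.6 and 181 CPM (3.36, 1.95 to 5.27), from 4 and 87 UMIs, with 52.9% of its UMIs labelled CKO in 1 cell. Its ratio was 3.28 without the top cells, but this also takes out 50% of its UMIs labelled WT. Ifih1 was at 22.0 and 127 CPM (2.53, from 5 and 61 UMIs) and Oasl2 at 30.8 and 77.0 (1.32, 0.14 to 2.73).
Isg15 was at 357 and 840 CPM, and its ratio went from 1.24 to 1.54 without the top cells. At the level of S100a8, neutrophil RNA would carry 4.12 of the 181 CPM of Rsad2 and 7.80 of the 840 CPM of Isg15 in the library labelled CKO.
Xaf1 was at 74.9 and 29.1 CPM (-1.36), Stat2 at 74.9 and 41.6 (-0.85) and Irf9 at 66.1 and 39.5 (-0.74). Ifi27l2a, at 396 and 183 CPM, went from -1.11 to -0.26 without the top cells, since 53.3% of its UMIs labelled WT lay in 1 cell.

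ILC2-like cells had 5 of 23 members lower and 2 higher, against 11.4% and 12.6% of all genes, with a median of -0.15 against -0.01. The lowest were Eif2ak2 at -0.89, the ADP-ribosyltransferase Parp14 at 127 and 75.7 CPM (-0.75, -1.26 to -0.24), Oasl2 at -0.69 and Ifit1 at -0.67. The highest were Phf11b at 1.15, Rtp4 at 0.67, Ifih1 at 0.51 and Ifi27l2a at 0.23. Of the 23 members read, Parp14 alone had an interval below 0, against 8.04% of all genes, and 0 had one above it, against 5.35%.

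Transcripts of the ligands were nearly absent, and most of them came from a single cell. Of 20 genes of type I and type III interferons (the latter act through a separate receptor), 1 had a UMI in the library labelled WT and 6 in the library labelled CKO, with 4 and 118 UMIs. Ifnb1, interferon-beta, accounted for 4 and 74 of them. Among the 13 plasmacytoid DC-like cells labelled CKO, the class known as the main makers of type I interferon, 1 cell of 7193 UMIs held 38 UMIs of Ifnb1, 24 of Ifnl2, 13 of Ifnl3 and 2 of Ifna2. The same cell held 21 of the 24 Rsad2 UMIs of its class and 140 member UMIs in all. It carried 9 UMIs of Siglech, a defining marker of the class. Outside it, Ifnb1 was found in 3 of 35 and 9 of 903 monocyte and macrophage-like cells, with 3 and 22 UMIs, and in 1 of 311 DC-like cells, with 5. The library labelled WT held 1 plasmacytoid DC-like cell, which had 0 ligand UMIs.

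Interferon-gamma, the type II interferon made by lymphocytes, acts through a receptor of its own. Ifng stood at 1398 and 4250 CPM in NK-like cells and at 41.5 and 545 in T-like cells. Of 32 genes known for their response to interferon-gamma, the ligand itself left out, 12 of 28 read in B-like cells (42.9%) were at least 1.5 times higher and 0 lower, with a median of 0.53, against the 5.69% and 6.86% of all genes given above. In DC-like cells 13 of 27 were higher (48.1%, against 22.9% of all genes) and 0 lower (against 14.6%). In neutrophil-like cells 12 of 27 were higher (44.4%, against 20.8%) and 5 lower (18.5%, against 26.6%). In monocyte and macrophage-like cells 12 of 29 were higher (41.4%, against 15.4%) and 4 lower (13.8%, against 25.9%). Named by size of ratio in B-like cells, the GTPase Iigp1 was at 8.62 and 33.7 CPM (1.97), the serpin Serpina3f at 31.5 and 90.3 (1.52) and the guanylate-binding protein Gbp2 at 40.9 and 101 (1.30). T-like cells had 8 of 28 higher (28.6%, against 16.4%) and 6 lower (21.4%, against 7.42%). NK-like cells had 3 of 23 higher and 2 lower, which is no more than the 16.7% and 13.5% of all genes. ILC3-like cells went the other way, with 2 of 19 higher (10.5%, against 14.1%), 5 lower (26.3%, against 13.1%) and a median of -0.41. ILC2-like cells had 10 of 23 higher (43.5%, against 12.6%) and 0 lower (against 11.4%). Plasma-like cells had 4 of 25 higher (16%, against 4.44%) and 6 lower (24%, against 18.7%).

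Of 9 receptor and kinase genes, 8 were read in B-like cells and none passed 1.5-fold in either direction, against 5.69% and 6.86% of all genes. In DC-like cells 2 of 8 were higher (25%, near the 22.9% of all genes) and 0 lower (against 14.6%). Among the higher was the receptor subunit Ifnar2 at 82.6 and 139 CPM (0.75, 0.14 to 1.44). In T-like cells 2 of 8 were higher (25%, against 16.4%) and 0 lower (against 7.42%). The higher ones were the kinase Tyk2 (1.14, 0.37 to 1.97) and Il10rb, a subunit of the type III receptor (0.90, 0.17 to 1.68). In NK-like cells 1 of 7 was higher, Ifnar2 (1.31, 0.14 to 2.78), and 1 lower, each 14.3%, near the 16.7% and 13.5% of all genes. Ifnar1, a subunit of the type I receptor, was at 67.4 and 66.5 CPM in B-like cells and at 127 and 125 in T-like cells. A list of 10 genes titled inhibitors of interferon signalling was read too, though not all of them act mainly as inhibitors. Of these, 4 of 10 were higher (40%, against 22.9%) and 0 lower (against 14.6%) in DC-like cells. Socs2 was there at 22.5 and 79.2 CPM (1.81) and Nlrc5 at 15.02 and 50.8 (1.76). In neutrophil-like cells 2 of 9 were higher (22.2%, near the 20.8% of all genes) and 1 lower (11.1%, against 26.6%). In T-like cells 2 of 10 were higher (20%, against 16.4%) and 2 lower (20%, against 7.42%). Socs3 stood at 1059 and 503 CPM in neutrophil-like cells (-1.07) and at 231 and 133 in T-like cells (-0.80), and Socs1 at 134 and 77.0 in T-like cells (-0.80).
A list of 21 genes tied to the induction of type I interferon was also read, though not all of them promote it. Zbp1, a sensor of Z-form nucleic acid that can start necroptosis, was at 292 and 598 CPM in neutrophil-like cells (1.04, 0.76 to 1.32). The STING gene, under the symbol Tmem173, was at 19.0 and 39.3 CPM in T-like cells (1.04, 0.47 to 1.65). Samhd1, which degrades deoxynucleotides and is on the list though not an inducer, was at 296 and 486 CPM in B-like cells (0.71, 0.63 to 0.79).

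Other interferon-stimulated genes, 62 in the table and none of them a member, were read beside the members. In DC-like cells 18 of 56 (32.1%) were at least 1.5 times higher and 2 lower, against 22.9% and 14.6% of all genes. In neutrophil-like cells 14 of 55 (25.5%) were higher, near the 20.8% of all genes, and 3 (5.45%) lower, against 26.6%. In B-like cells 10 of 58 (17.2%) were higher and 0 lower, against 5.69% and 6.86%. The largest ratios were those of Ifi205 at 0.602 and 4.96 CPM (3.04, 1.45 to 5.35) and Ifi204 at 1.203 and 7.07 (2.56). In T-like cells 5 of 57 (8.77%) were higher and 7 (12.3%) lower, against 16.4% and 7.42%, and Ifitm1 stood at 36.4 and 122 CPM there (1.74, 1.35 to 2.15). In plasma-like cells 4 of 55 (7.27%) were higher and 11 (20%) lower, close to the 4.44% and 18.7% of all genes.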

How the data were processed

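The 3′ libraries (10x Genomics, version 3.1 chemistry per the labels) were deposited by the authors as UMI counts per gene and barcode, not normalized, 1 matrix per library. Per the submitters' processing notes the build was mm10 and the tools included Seurat 3.2.3 and Cell Ranger 5.0.0; the matrix header has Cell Ranger 6.0.1.
Barcodes with under 200 genes or over 20% mitochondrial UMIs, and doublets called by Scrublet, were removed. The rest were clustered by Leiden at resolution 1 on 2000 variable genes, with interferon genes left out (scanpy 1.11.5, leidenalg 0.10.2, Python 3.11.15), then named from marker lists. After the data were seen, rules were added that a named cluster needs a marker score of 0.5, that clusters mixing classes (score over 0.3, or 0.9 of the best) are set aside, and that clusters of low depth stay unnamed.
UMIs were summed per library and class, and scaled to CPM, the UMIs per 1000000 UMIs of the class. A class was read with at least 20 cells in each library. Intervals (95%, exact Poisson, binomial and conditional binomial, scipy 1.17.1) cover counting error only. The code was tested on simulated data.
The members and all lists were chosen with earlier results of these data known. In each class the 4 largest and 4 smallest ratios among members with at least 20 UMIs are named, with up to 3 genes of each pathway list, and a gene with over 25% of its UMIs in 1 cell is given with and without that cell. Other genes named were chosen after their values were seen. Alternatives covered cell filters, clustering, class calls, scaling, thresholds and weighting. 1 gene of the signalling list is not reported here.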

Additional observations from a re-analysis of the deposited data

How the results depend on the processing

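Each class gave a summed log2 ratio, a median log2 ratio of members, and counts of members higher and lower, under up to 17 alternatives. Of these, 412 values stayed near the main one, 136 moved and 6 reversed; the cause was not tested. A sum counts as reversed where its sign changed and the main interval excluded 0, and a median only where it was past 1.5-fold, as none was. Counting every change of sign, 14 of 125 sums and 8 of 143 medians changed it. No paired analysis was possible because each label has 1 library.
In T-like cells the summed ratio of -0.26 was -0.16 with the stricter filter, -0.17 and -0.15 at resolutions 0.5 and 2, -0.14 with mixed clusters counted (an alternative chosen after seeing the data), -0.17 with cells called by their own markers, -0.39 without structural genes in the total, -0.34 centred on all genes, -0.41 without the top 3 members, and reversed to 0.15 with sub-clusters weighted alike. The median was -0.090 by own markers and 0.26 with sub-clusters alike. Members higher numbered 2 at resolution 0.5, with mixed clusters, by own markers and with cells weighted alike, 4 with sub-clusters alike, and 0 at 2-fold and after thinning. Members lower numbered 7 with mixed clusters and by own markers, 3 at 2-fold and 0 with sub-clusters alike.
In monocyte and macrophage-like cells the sum reversed to 0.036 (stricter filter), 0.066 (resolution 2), 0.25 (own markers) and 0.011 (centred). It was -0.0069 when clustered with interferon genes, -0.26 at resolution 0.5, -0.13 without structural genes, -0.19 without the top 3, -0.25 with cells alike and thinned, and -0.16 with sub-clusters alike. The median was 0.070 (stricter filter), 0.041 (resolution 2), 0.15 (own markers) and -0.35 (thinned). Members higher numbered 2 under the stricter filter and resolution 2, 0 with mixed clusters and at 2-fold, and 6 by own markers and thinned. Members lower numbered 2 (stricter filter, 2-fold), 4 (resolution 2, centred), 1 (own markers) and 11 (thinned).
In neutrophil-like cells the sum reversed to -0.013 under the stricter filter, and was 0.23 (mixed clusters, cells alike), 0.22 (own markers), 0.18 (centred), 0.11 (without the top 3), 0.20 (sub-clusters alike) and 0.17 (thinned). Members higher numbered 3 (stricter filter, 2-fold) and 4 (interferon genes clustered, own markers). Members lower numbered 2 (stricter filter) and 1 (own markers, at least 10 UMIs, thinned).
In plasma-like cells the sum was -0.27 (mixed clusters), -0.29 (own markers), -0.20 (no structural genes), -0.038 (centred), -0.33 (without the top 3), -0.28 (cells alike), -0.22 (sub-clusters alike) and -0.36 (thinned). The median was -0.52 (own markers), -0.13 (centred), -0.56 (cells alike) and -0.18 (sub-clusters alike). Members higher numbered 3 (doublets kept, sub-clusters alike), 4 (resolutions 0.5 and 2, centred), 2 (no structural genes, at least 10 UMIs) and 0 (mixed clusters, own markers, at least 50 UMIs, thinned). Members lower numbered 4 (doublets kept, resolution 0.5, sub-clusters alike, thinned), 13 (mixed clusters), 16 (own markers), 3 (centred), 2 (2-fold) and 14 (cells alike).
In B-like cells the sum was -0.035 (no structural genes), 0.018 (centred), 0.023 (cells alike), 0.17 (without the top 3) and 0.060 (thinned). Members higher numbered 4 (doublets kept, resolution 0.5, own markers), 1 (2-fold) and 6 (thinned), and 1 was lower by own markers.
In NK-like cells the sum was -0.043 (own markers), -0.52 (cells alike) and -0.66 (thinned). Members higher numbered 2 (resolution 0.5) and 1 (2-fold, cells alike), and members lower 4 (stricter filter, 2-fold) and 6 (interferon genes clustered, own markers).
In DC-like cells the sum was 0.52 without the top cell and the median 0.10 after thinning. Members higher numbered 5 at 2-fold. Members lower numbered 1 (doublets kept, resolution 2, no structural genes, centred, cells alike) and 3 (thinned). Own-marker calls left under 20 DC-like cells labelled WT and gave no value.
In ILC2-like cells the sum was 0.18 by own markers and the median 0.23 after thinning. Members higher numbered 1 (at least 50 UMIs, 2-fold, thinned), and members lower 1 (mixed clusters, own markers), 2 (at least 50 UMIs) and 0 (2-fold, thinned). In ILC3-like cells 2 members were higher after thinning, and 8 (mixed clusters), 1 (at least 50 UMIs), 2 (2-fold) and 0 (thinned) were lower.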
